A study of Mus musculus with 8 samples.

Results

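The genes of the proteasome were examined in mouse acute myeloid leukaemia cells taken from animals that had eaten, through chemotherapy, either a standard amino acid diet or one without the branched-chain amino acids (BCAA). Members were chosen by name alone: every protein-coding mouse gene in the count table whose symbol starts with Psma, Psmb, Psmc, Psmd or Psme followed by a number, leaving out the inducible catalytic subunits Psmb8, Psmb9 and Psmb10 and pseudogenes. This gave 42 of the 27179 genes in the table. They comprise 8 α and 8 β genes of the barrel-shaped core particle, 6 ATPases and 3 other genes of the base of the regulatory particle, 8 genes of its lid, 3 chaperones of its assembly (Psmd5, Psmd9 and Psmd10) and 4 genes of other activators that cap the core (Psme1 to Psme4). The remaining 2, Psmc3ip and Psme3ip1, match the symbol rule only: Psmc3ip encodes a recombination protein, and Psme3ip1 a protein that interacts with Psme3.

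The proteasome is the protease that degrades proteins marked with ubiquitin in the cytosol and nucleus. Its core encloses the catalytic sites of the β subunits Psmb5, Psmb6 and Psmb7 behind gates formed by the α rings, and the regulatory particle binds ubiquitin chains, unfolds the substrate with its ring of ATPases and removes the chains with the lid enzyme Psmd14. Its subunits stand in fixed proportions in the complex, and the transcription factor Nfe2l1 raises their genes together when proteasome activity falls. Protein breakdown by the proteasome also returns amino acids, BCAA included, to the cell.

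The leukaemia is driven by MLL-AF9, an oncogene that joins the methyltransferase MLL to its partner AF9, and its cells also carry green fluorescent protein (GFP), which the labels put under ubiquitin control, and a luciferase under a β-actin promoter. They came from 1 terminally ill mouse, were expanded in culture, and were injected into unconditioned male mice of 8 to 10 weeks; the labels give the genotype as WT. Mice of all 8 libraries were given the 5+3 regimen: 5 daily doses of cytarabine (100 mg/kg), the first 3 accompanied by doxorubicin (3 mg/kg). No untreated group enters here, and cells were collected when the response to chemotherapy was greatest. The 5 libraries labelled AA 5+3 are called standard diet and the 3 labelled BCAA 5+3 are called BCAA-free diet, as the series' title and design text are read here. Living GFP-positive cells were sorted from crushed bones, and polyadenylated RNA was sequenced. The labels call the libraries biological replicates without saying that each is a separate mouse, so the p-values measure the spread between these libraries.

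Library totals lay between 14851240 and 38966911 counts. All 12 genes fixed as markers of the leukaemia and of myeloid progenitors (among them Hoxa9, Meis1 and Mpo) had counts in every library, and their summed level was 14977 to 18247 CPM (counts per 1000000, scaled by TMM factors) on the standard diet and 11918 to 14337 CPM on the BCAA-free diet. Markers of other cells were present at lower sums: 6 B cell genes at 8.22 to 15.96 and 25.6 to 105 CPM, 6 T and NK cell genes at 8.06 to 17.1 and 10.6 to 29.3 CPM, 6 erythroid genes at 3.61 to 10.4 and 3.79 to 34.1 CPM, 9 macrophage and dendritic cell genes at 303 to 408 and 238 to 327 CPM, and 7 stromal and endothelial genes at 25.7 to 46.1 and 42.6 to 63.5 CPM, standard diet first. Most of the macrophage and dendritic cell sum was Vcam1 and Adgre1. Of that list, Vcam1 was lower in every BCAA-free library (207 to 239 and 105 to 201 CPM). C1qa (2.04 to 3.72 and 4.01 to 6.44), C1qc (2.04 to 2.67 and 3.59 to 5.70) and H2-Ab1 (3.80 to 6.06 and 6.33 to 24.4) were higher in every one. Adgre1, C1qb, Mrc1, Siglec1 and Flt3 overlapped between diets. In the stromal and endothelial list, Cxcl12 was higher in every BCAA-free library (2.04 to 8.16 and 13.5 to 39.4 CPM). The other genes of that list overlapped. Genes of mature neutrophils, which leukaemia cells can also express, summed to 721 to 5918 and 1416 to 5797 CPM. No marker was at 0 in all libraries. In such bulk RNA, fewer cells of a type and less RNA per cell cannot be told apart.

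The proteasome genes were among the well expressed genes of these cells. To compare genes, CPM was divided by the length in kb of the exons in GENCODE transcripts that match a RefSeq mRNA. On this scale the 31 subunit genes of the core and regulatory particle, without the tissue-restricted Psma8 and Psmb11, had levels from 16.1 (Psma3) to 233 CPM per kb (Psma7), with a median of 107, against a median of 11.2 for all genes tested. Of these, 30 stood above the 75th percentile of all genes tested, and Psma3 was at the 60.2nd. The 42 genes together took between 0.486% and 0.655% of a library's counts.

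Within the α ring, whose 7 subunits occupy 1 position each, levels per kb differed widely. Psma7 was highest at 233, followed by Psma6 at 221 and Psma1 at 218 CPM per kb, and these values differed by less than their spread over the standard-diet libraries (219.8 ± 22.2, 215 ± 24.8 and 219 ± 24.6; SD, n = 5). Psma4 followed at 135, Psma2 at 63.1, Psma5 at 38.5 and Psma3 at 16.1 CPM per kb. The highest and lowest core genes were 14.5-fold apart on this scale. The scale depends on the exon length used, which was 2846 bases for Psma3 and 2911 for Psma2. For the other α genes named here it was 914 (Psma7) to 1239 bases (Psma5). Before division by length, Psma3 and Psma5 had similar standard-diet means (46.2 and 45.4 CPM). Over the whole core, standard-diet means in CPM ran from 40.8 (Psmb5) to 263 (Psma1), a narrower range than per kb. Those of the regulatory particle ran from 101 (Psmd11) to 346 CPM (Psmd1). How far these lengths match the transcripts present in the cells was not tested. In the β ring, levels per kb ran from 47.3 for Psmb5, the chymotrypsin-like catalytic subunit, through 71.1 (Psmb3), 81.4 (Psmb6, caspase-like), 108 (Psmb1), 112 (Psmb7, trypsin-like) and 123 (Psmb4) to 129.5 (Psmb2). The 17 regulatory particle genes were closer to each other, from 35.5 for the lid scaffold gene Psmd11 to 142 for the deubiquitinase gene Psmd14, a 4.00-fold range.

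**Figure D1:**
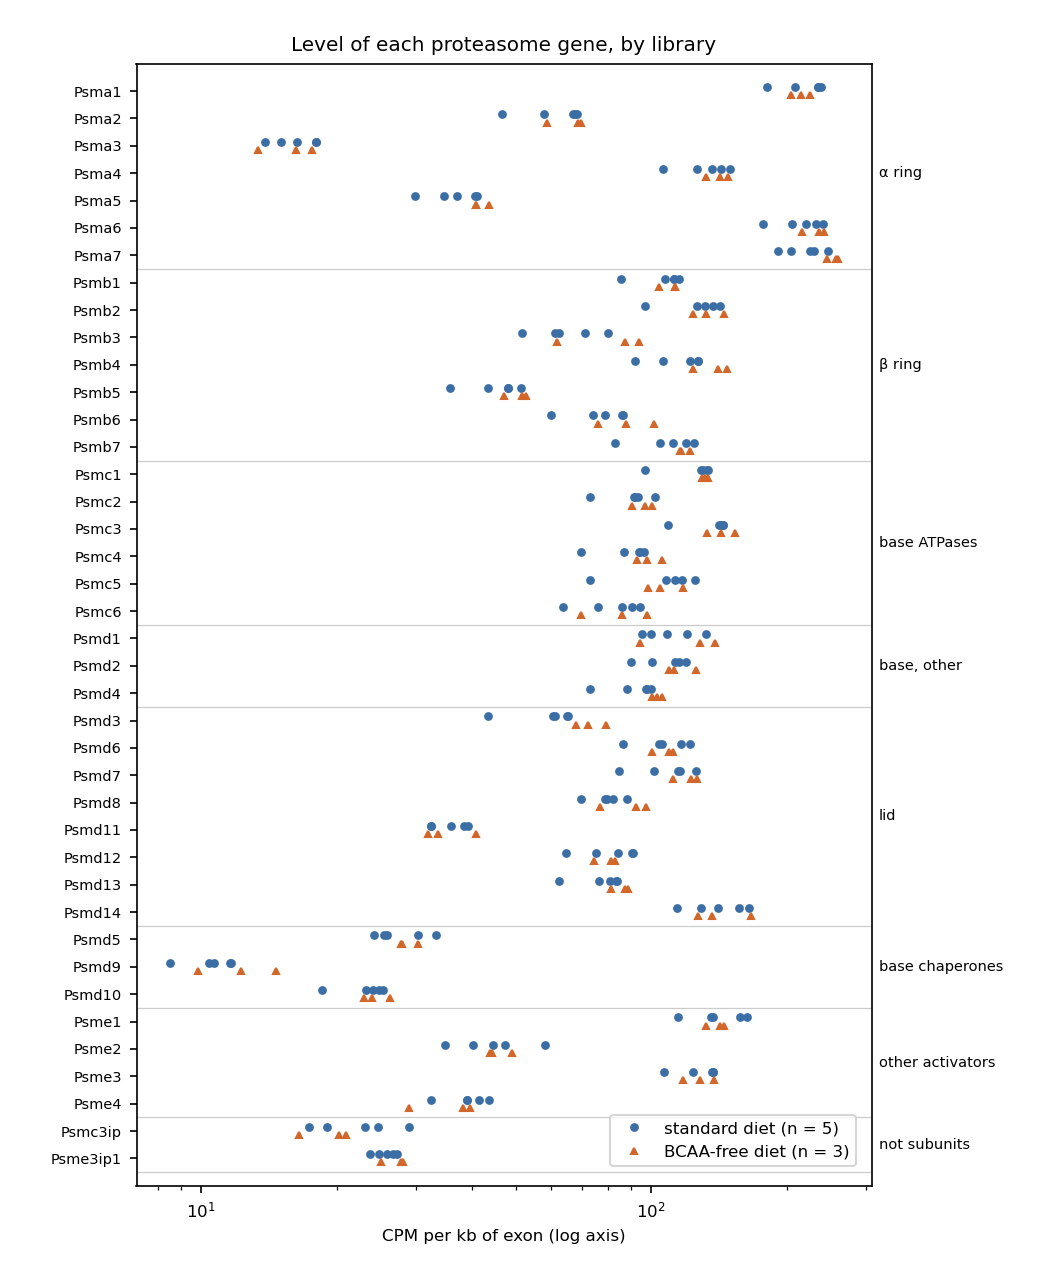
Level of each of the 40 tested proteasome genes in CPM per kb of exon (log axis), with 1 point per library: circles for the 5 standard-diet libraries, triangles for the 3 BCAA-free libraries, genes grouped by role. Psma7, Psma6 and Psma1 stand highest and Psmd9 and Psma3 lowest, and the groups overlap in all genes but Psmd3 and Psmd4.

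Several members share sequence with other genes, which bears on their counts because how multiply mapped reads were counted is not given in the sources used here. Words of 38 bases, the read length, were taken from each member's transcripts and looked up in the GENCODE transcripts of all other genes on both strands. For 18 of the 42 members no word was shared. For 4 members more than 50% of the words were: 68.8% for Psmb5, 63.4% for Psmb3, 62.1% for Psma5 and 60.5% for Psme2, mostly with processed pseudogenes and, for Psme2, with its copy Psme2b. Among the 31 core and regulatory particle genes, the 3 with such a share (Psma5, Psmb3 and Psmb5) had levels of 38.5 to 71.1 CPM per kb, and the 14 with no shared word 64.4 to 232.7. Psma3 shared 24.8% of its words. How much of the difference in level comes from such reads was not tested, and the levels of these genes are uncertain.

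The 2 tissue-restricted core genes were at the edge of detection. Psma8, the α subunit of germ cells, had 0 counts in 5 libraries, 2 in standard-diet replicate 3, 2 in BCAA-free replicate 1 and 13 in BCAA-free replicate 3. Psmb11, the thymus-specific catalytic subunit, had at most 5 counts in a library and 0 in 4 of them. Both fell below the filter on low counts, so 40 of the 42 members were tested.

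The comparison between diets asked whether the leukaemia cells changed their proteasome genes when the mice ate no BCAA. None of the 40 tested members passed the threshold of 0.05 on the adjusted p, whether by edgeR's quasi-likelihood test, DESeq2 or limma-voom. Over all 13364 genes tested, edgeR called 0.756% (0.217% higher and 0.539% lower on the BCAA-free diet), DESeq2 2.81% and limma-voom 0.636%. DESeq2 gave no adjusted p to 1043 of these genes, which count as not called in its share. The edgeR calls were 29 higher and 72 lower, and without BCAA-free replicate 3 they were 78 higher and 56 lower. At an unadjusted p of 0.05, edgeR and DESeq2 passed 2 members each and limma-voom 3, against 13.5%, 14.3% and 13% of all genes tested. The smallest adjusted p of a member in edgeR was 0.303. The fit was fairly precise for these genes, with standard errors of the log2 fold change from 0.10 to 0.18. For 38 of the 40 members the 95% interval of the difference stayed within 1.5-fold in both directions (51% of all genes tested did so), the exceptions being Psmb3 and Psmc3ip. The summed B cell markers were higher in every BCAA-free library than in any standard-diet library (ranges above). C1qa, C1qc, H2-Ab1 and the stromal Cxcl12 were also higher singly in every BCAA-free library, while Vcam1 was lower in every one. The summed leukaemia and progenitor markers were lower in every BCAA-free library, as was the most abundant of them, Mpo (7623 to 10004 CPM on the standard diet and 5814 to 6967 CPM on the BCAA-free diet). The sum without Mpo overlapped between diets (7018 to 8454 and 6104 to 7371 CPM). Their part in these fold changes was not tested.

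**Figure D2:**
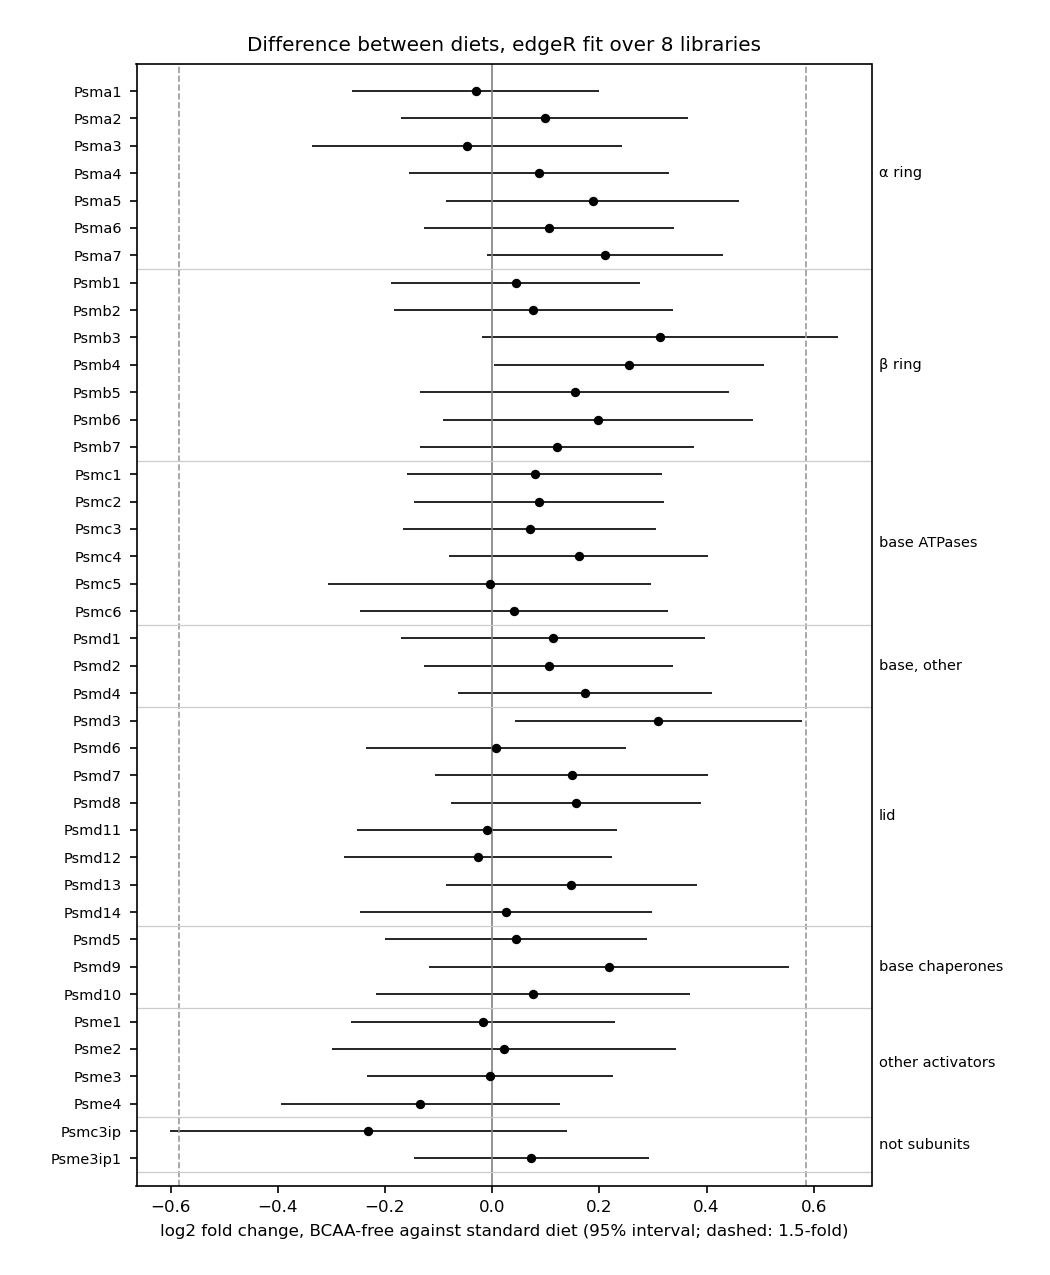
Log2 fold change of the 40 tested members, BCAA-free against standard diet, with the 95% interval from the edgeR fit over 8 libraries, and dashed lines at 1.5-fold. Most points lie a little to the right of 0, and only the intervals of Psmd3 and Psmb4 leave 0 out, before any adjustment.

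The fold changes of the members leaned upward by a small amount: 31 of the 40 were positive, with a median log2 fold change of 0.083, from -0.23 (Psmc3ip) to 0.31 (Psmb3). Over all genes tested, 52.6% were positive and the median was 0.015. The lean was smaller without standard-diet replicate 2: 23 of the 40 were positive and the median was 0.017, with 52.7% positive over all genes. The scaling also moved it, since with library totals alone, or with upper-quartile factors, 37 of the 40 members were positive (medians 0.13 and 0.12), while the median of all genes was then 0.062 and 0.049.

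Among the α genes, which form the outer rings of the core and its gate, 5 of 7 tested had a positive fold change and none passed (median 0.10). Psma7 had values of 187, 175, 206, 210.5 and 226 CPM in standard-diet replicates 1 to 5 and 235, 224 and 238 CPM in the BCAA-free libraries. The groups overlapped, because standard-diet replicate 5 lay above BCAA-free replicate 2. The means were 232 ± 7.12 CPM (SD, n = 3) on the BCAA-free diet and 201 ± 20.3 CPM (SD, n = 5) on the standard diet (log2 fold change 0.21, SE 0.10, edgeR adjusted p = 0.396). Psma5 was at 45.96, 36.9, 50.4, 50.9 and 42.8 CPM on the standard diet and 50.4, 50.6 and 54.1 CPM on the BCAA-free diet, where standard-diet replicate 4 lay inside the BCAA-free range and the other 4 below it (log2 fold change 0.19, SE 0.13, adjusted p = 0.557). Psma1, gene 26440 on chromosome 7 from 114264550 to 114276116 (GRCm38), was at 250.3, 217, 282, 282 and 286 CPM and 270.1, 258 and 245 CPM, standard diet first. Its 95% interval on the log2 scale was -0.26 to 0.20 around -0.031. Psma3, lowest per kb in the core, was at 39.4, 46.5, 51.3, 42.7 and 51.3 CPM and 46.2, 50.1 and 38.05 CPM, with its lowest values in standard-diet replicate 1 and BCAA-free replicate 3 (log2 fold change -0.047, SE 0.14). Psma2, Psma4 and Psma6 had log2 fold changes of 0.10, 0.088 and 0.11.

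All 7 tested β genes had positive fold changes, none of which passed (median 0.15). Psmb4, a structural β subunit, was at 150.5, 109, 144, 150.2 and 126 CPM on the standard diet and 174, 146 and 166 CPM on the BCAA-free diet. BCAA-free replicates 1 and 3 lay above every standard-diet library and replicate 2 did not. The means were 162 ± 14.5 CPM (SD, n = 3) on the BCAA-free diet and 136 ± 18.1 CPM (SD, n = 5) on the standard diet (log2 fold change 0.26, SE 0.12, edgeR adjusted p = 0.3599). Psmb3, also without catalytic activity, was at 54.5, 39.5, 46.8, 47.7 and 61.3 CPM and then 67.00, 47.2 and 71.9 CPM, and again BCAA-free replicates 1 and 3 were high and replicate 2 was within the standard-diet range (log2 fold change 0.31, SE 0.16, adjusted p = 0.405). Of the catalytic genes, Psmb5, the target of the proteasome inhibitor bortezomib, was at 46.1, 32.1, 43.3, 43.3 and 39.1 CPM on the standard diet and 46.3, 42.3 and 47.5 CPM on the BCAA-free diet (log2 fold change 0.15, SE 0.14). Psmb6 was at 68.8, 47.8, 69.1, 62.9 and 59.2 CPM and 70.02, 60.8 and 81.1 CPM in the same order (log2 fold change 0.20, SE 0.14). Psmb7 was at 129.5, 96.6, 139, 121 and 144 CPM and 135, 134 and 142 CPM (log2 fold change 0.12, SE 0.12). For all 3 catalytic genes the groups overlapped and standard-diet replicate 2 was the lowest library.

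In the base of the regulatory particle, 8 of 9 genes had a positive fold change and none passed (median 0.088). Psmd4, a receptor for ubiquitin chains (gene 19185, chromosome 3 from 95032688 to 95042614), was at 134, 98.2, 119, 131 and 131 CPM on the standard diet and 135, 138 and 141 CPM on the BCAA-free diet. All BCAA-free libraries were above all standard-diet libraries, by a margin of under 1 CPM between standard-diet replicate 1 and BCAA-free replicate 1. The means were 138 ± 3.33 CPM (SD, n = 3) on the BCAA-free diet and 123 ± 14.905 CPM (SD, n = 5) on the standard diet (log2 fold change 0.17, SE 0.11, edgeR adjusted p = 0.526). Psmc4, an ATPase of the ring that unfolds substrates, was at 136, 101, 135, 125 and 139 CPM and 134, 141 and 152 CPM, standard diet first, with overlap (log2 fold change 0.16, SE 0.11). Psmd1, the large scaffold of the base (gene 70247, chromosome 1 from 86064619 to 86139295), was at 298, 310.4, 412, 337 and 374 CPM and 431, 398 and 294 CPM. BCAA-free replicates 1 and 3 held the highest and the lowest of the 8 values (log2 fold change 0.11, SE 0.13, adjusted p = 0.759). The other ATPases, Psmc1, Psmc2, Psmc3, Psmc5 and Psmc6, had log2 fold changes of 0.079, 0.088, 0.07, -0.0048 and 0.041, and the scaffold gene Psmd2 had 0.11.

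The lid, which takes ubiquitin chains off the substrate, held the member with the smallest p. Psmd3, a lid subunit (gene 22123, chromosome 11 from 98682554 to 98695978), was at 139.7, 93.1, 132, 130.1 and 140.4 CPM on the standard diet and 171, 146 and 155 CPM on the BCAA-free diet. All BCAA-free libraries lay above all standard-diet libraries, and standard-diet replicate 2 lay far below the other 4. The means were 157 ± 12.5 CPM (SD, n = 3) on the BCAA-free diet and 127 ± 19.5 CPM (SD, n = 5) on the standard diet (log2 fold change 0.31, SE 0.13, edgeR adjusted p = 0.303), and its unadjusted p was 0.02602. Without standard-diet replicate 2 the log2 fold change of Psmd3 was 0.22. Psmd8 was at 124, 105, 119.6, 134 and 121 CPM and 140.0, 116 and 147 CPM, and Psmd13 at 161, 124, 167, 166 and 152 CPM and 176, 162 and 174 CPM, both with overlapping groups (log2 fold changes 0.16 and 0.15). Psmd14, the catalytic deubiquitinase, was at 198, 176, 254, 217 and 242 CPM and 257, 211 and 196 CPM, a log2 fold change of 0.026 with a 95% interval of -0.25 to 0.30. Psmd11, which helps join lid and base, was at 92.1, 92.1, 112, 109 and 102 CPM and 116, 90.9 and 95.4 CPM (log2 fold change -0.0091, SE 0.11). The other lid genes, Psmd6, Psmd7 and Psmd12, had log2 fold changes of 0.0077, 0.15 and -0.027. Of the 40 tested members, Psmd3 and Psmd4 were the 2 whose groups did not overlap, both higher on the BCAA-free diet, whereas 8.84% of all genes tested had groups without overlap, and 4.17% had them in that direction.

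The members outside the core and regulatory particle did not pass either. The symbol rule leaves out subunits of the regulatory particle with other names, Sem1 and Adrm1, which are among the further genes below. Psmd9, a chaperone that helps assemble the base, was at 27.02, 22.1, 27.7, 30.2 and 30.1 CPM on the standard diet and 31.9, 25.6 and 38.1 CPM on the BCAA-free diet, with the highest value in BCAA-free replicate 3 (log2 fold change 0.22, SE 0.16), and the chaperones Psmd5 and Psmd10 had 0.044 and 0.075. Of the activators, which open the core without ATP, Psme1 and Psme2 (the interferon-inducible pair) had log2 fold changes of -0.017 and 0.023, the nuclear Psme3 had -0.0043, and Psme4 (PA200) had -0.13 (SE 0.12, adjusted p = 0.677). Psmc3ip, which is no subunit, was at 29.9, 22.4, 24.6, 31.9 and 37.4 CPM and 26.2, 21.3 and 27.1 CPM, standard diet first, the most negative fold change among the members (-0.23, SE 0.18, adjusted p = 0.5999).

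A difference larger than that between diets lay within the standard-diet group. Standard-diet replicate 2 was the lowest of the 8 libraries for 34 of the 40 tested members, and for 19% of all genes tested. Its levels were below the mean of the other 4 standard-diet libraries for 39 of 40 members, by a median of 0.39 on the log2 scale (23.5% lower), with all 17 regulatory particle genes and 13 of 14 core genes below. The median over all genes tested was -0.012. The members furthest down were the ATPase gene Psmc5 (-0.66 on the log2 scale) and Psmd3 (-0.54), and Psma3 was the exception at 0.009. This library had 17795159 counts, inside the range of the others, and a TMM factor of 0.991. It had the lowest sum of the mature neutrophil markers (721 CPM against 1416 to 5918 in the others) and the highest sum of the macrophage and dendritic cell markers (408 CPM). The latter list did not move together in this library. Adgre1 was at 167 CPM, its highest of the 8 libraries, whereas C1qa (2.04 CPM) and H2-Ab1 (3.80 CPM) were at their lowest. C1qc (2.67 CPM) was at its highest of the standard diet. The part of these markers in the low proteasome values was not tested. The summed level of all members was 5839, 4911, 6363, 6272 and 6351 CPM in standard-diet replicates 1 to 5 and 6523, 6109 and 6209 CPM on the BCAA-free diet, so that the other 7 libraries lay close together whatever the diet.

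**Figure D3:**
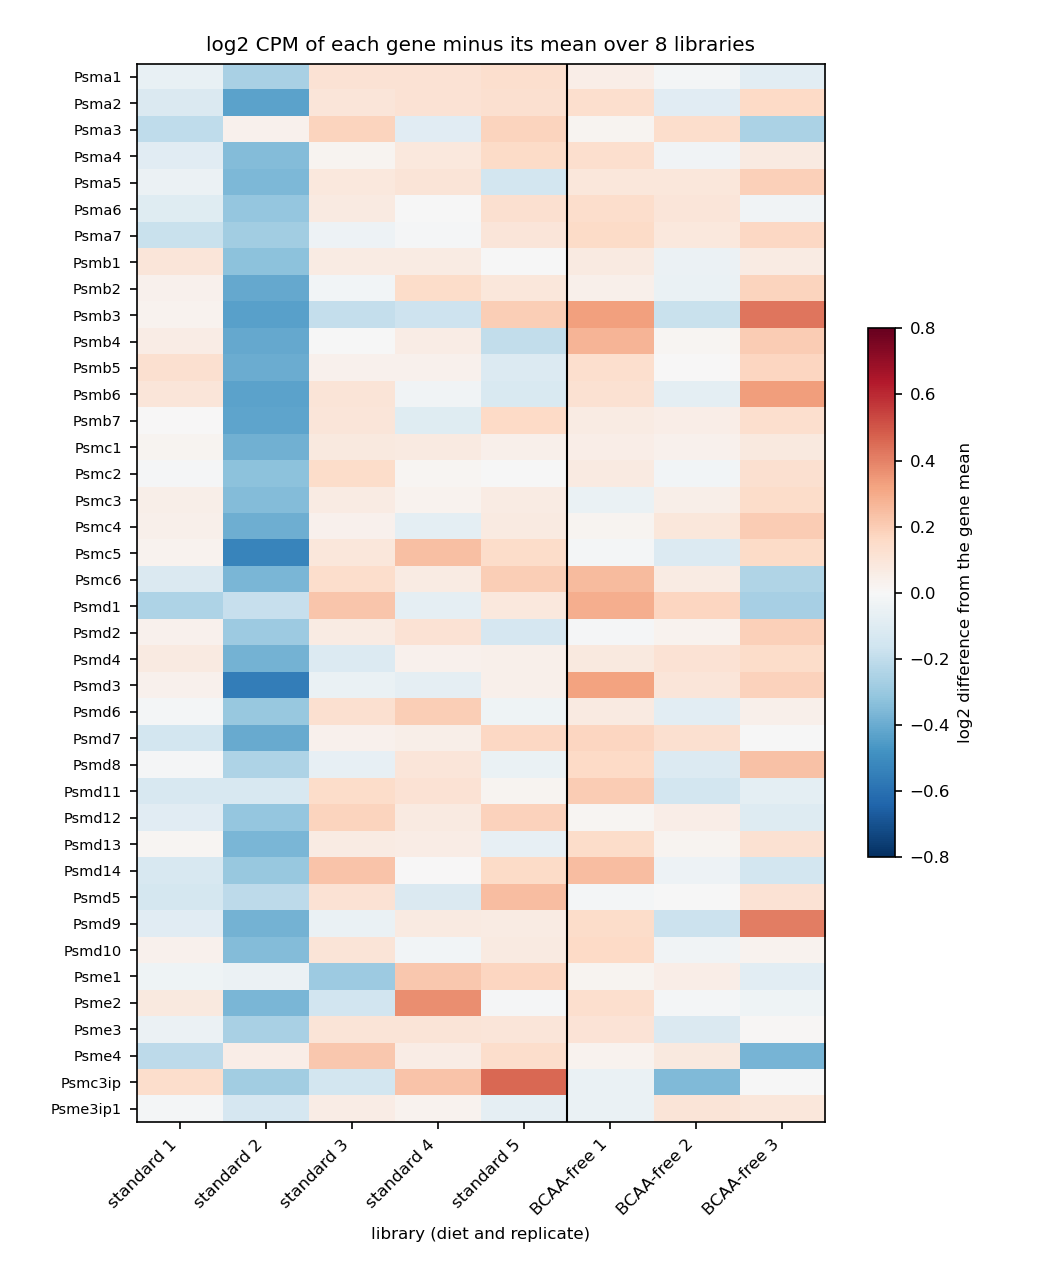
Log2 CPM of each tested member minus its own mean over the 8 libraries (colour, red higher and blue lower), with libraries in columns and the diets separated by a line. The column of standard-diet replicate 2 is blue for nearly all members, whereas the column of BCAA-free replicate 3 is red for most β genes and blue for Psmd1, Psmc6, Psma3 and Psme4.

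The mean levels of the core and of the regulatory particle were compared in each library. The mean level of the 14 core genes was 111, 89.5, 116, 116 and 119 CPM per kb in standard-diet replicates 1 to 5 and 124, 114 and 123 CPM per kb on the BCAA-free diet. For the 17 regulatory particle genes it was 95.4, 76.9, 104, 101 and 102 and 106, 99.4 and 101 CPM per kb. Both were lowest in standard-diet replicate 2 and the groups overlapped in both. The ratio of core to regulatory particle varied less, being 1.16, 1.16, 1.12, 1.15 and 1.17 on the standard diet and 1.17, 1.15 and 1.21 on the BCAA-free diet. Its means were 1.18 ± 0.0327 (SD, n = 3) on the BCAA-free diet and 1.15 ± 0.0198 (SD, n = 5) on the standard diet, a log2 difference of 0.031 that was about the size of the spread within a group. It was 0.01 without BCAA-free replicate 3, the library with the highest ratio. The median log2 fold change was 0.11 for the core genes (12 of 14 positive) and 0.088 for the regulatory particle genes (14 of 17 positive), against 0.015 for all genes tested. These are descriptions over genes of 1 complex, which are not replicates, and carry no p.

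**Figure D4:**
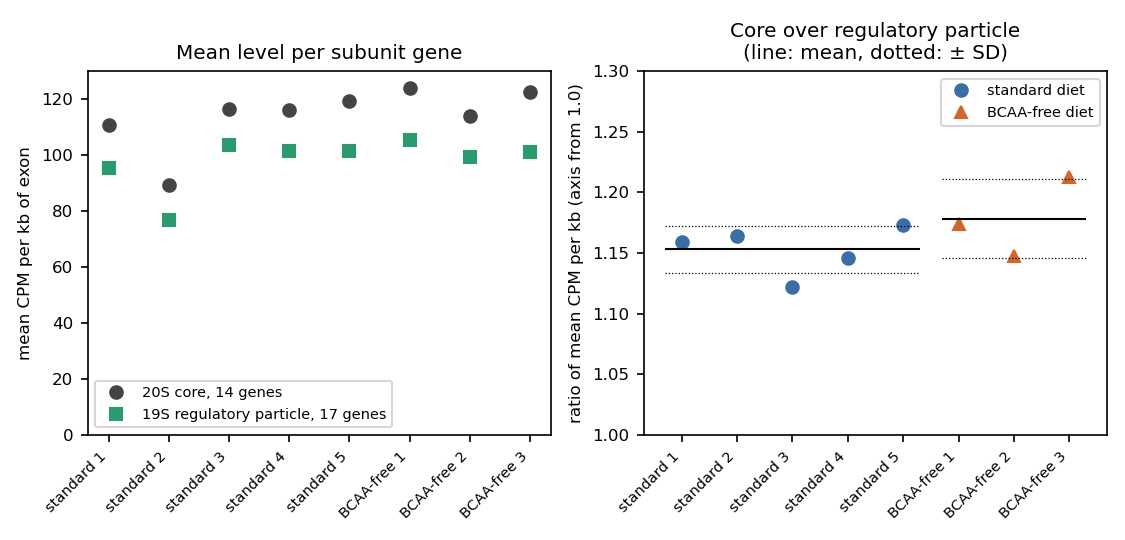
Left, mean CPM per kb of the 14 core genes (circles) and the 17 regulatory particle genes (squares) in each library. Right, the ratio of the 2 in each library, with the group mean and SD, on an axis that starts at 1.0: it lies between 1.12 and 1.21, and the standard-diet and BCAA-free libraries overlap.

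The proportion of α to β genes varied more than that of core to regulatory particle. The ratio of mean α to mean β level per kb was 1.23, 1.48, 1.41, 1.41 and 1.48 on the standard diet and 1.36, 1.45 and 1.23 on the BCAA-free diet, lowest in standard-diet replicate 1 and BCAA-free replicate 3. The ratio of base to lid was 1.26, 1.19, 1.201, 1.200 and 1.201 and 1.13, 1.25 and 1.25 in the same order. In neither did the diets separate.

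The promoters of the members were searched for short motifs. RefSeq promoters (250 bases before to 50 after the start, GRCm38.p6) were present for 35 of the 42 members, 39 promoters in all. Each of 6 motifs was looked for on both strands: TGACNNNGC, the core of the antioxidant response element that Nfe2l1 binds, its looser form TGANNNNGC (which includes every TGACNNNGC match), the CCAAT box bound by NF-Y, the ETS site CCGGAAGT, TATAAA, and CGCATGCG, the core of the site of nuclear respiratory factor 1. The 4 promoters below are the upstream 250 bases for the catalytic genes Psmb5 and Psmb6, each with a TGACNNNGC match, for the ATPase gene Psmc1 with an ETS match, and for Psmd4, whose groups did not overlap, with a CCAAT match. Capitals mark the match, and a match on the other strand reads as its reverse complement.
Psmb5 (chr14:54617996-54618245, minus strand): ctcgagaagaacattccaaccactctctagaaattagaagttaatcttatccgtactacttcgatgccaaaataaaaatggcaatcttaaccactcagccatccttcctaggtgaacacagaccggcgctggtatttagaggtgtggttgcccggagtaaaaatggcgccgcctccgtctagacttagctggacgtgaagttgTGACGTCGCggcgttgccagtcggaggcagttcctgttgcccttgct
Psmb6 (chr11:70525107-70525356, plus strand): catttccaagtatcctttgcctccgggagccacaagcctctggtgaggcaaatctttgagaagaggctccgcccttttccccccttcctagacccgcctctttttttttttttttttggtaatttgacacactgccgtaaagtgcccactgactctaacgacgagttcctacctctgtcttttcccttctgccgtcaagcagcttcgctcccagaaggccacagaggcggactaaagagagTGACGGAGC
Psmc1 (chr12:100109952-100110201, plus strand): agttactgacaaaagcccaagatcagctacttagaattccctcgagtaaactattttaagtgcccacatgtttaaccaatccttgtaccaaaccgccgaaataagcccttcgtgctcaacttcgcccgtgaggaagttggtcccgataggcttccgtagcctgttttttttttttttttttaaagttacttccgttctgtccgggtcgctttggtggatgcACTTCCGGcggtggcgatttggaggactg
Psmd4 (chr3:95042615-95042864, minus strand): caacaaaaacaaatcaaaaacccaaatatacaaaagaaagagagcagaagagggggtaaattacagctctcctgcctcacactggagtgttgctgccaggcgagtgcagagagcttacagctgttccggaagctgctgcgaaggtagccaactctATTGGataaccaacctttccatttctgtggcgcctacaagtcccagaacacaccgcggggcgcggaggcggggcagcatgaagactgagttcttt

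TGACNNNGC was in 6 of the 39 member promoters, those of Psmb5, Psmb6, Psmc6, Psmd9, Psmd12 and Psme4 (15.4%), in 12.4% of all 32851 promoters and in 14.2% of those of tested genes. The looser TGANNNNGC was in 59.0%, 41.3% and 43.0%, and CCAAT in 38.5%, 37.4% and 38.4%, of the same sets. The ETS site was in 9 member promoters of 8 genes (Psma6, Psmc1, Psmc2, Psmd6, Psmd12, Psmd13, Psme3 and Psme4), 23.1%, against 3.89% of all promoters and 8.09% of those of tested genes. TATAAA was in 7.69% of member promoters, 13.6% of all promoters and 7.44% of those of tested genes, and CGCATGCG in 1 member promoter, that of Psma2 (2.56%), against 1.87% and 3.75%. The 6 members with TGACNNNGC had a median log2 fold change between diets of 0.097 and the 8 with the ETS site one of 0.043. A match describes the letters in this window and does not show binding.

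The inducible catalytic subunits Psmb8, Psmb9 and Psmb10, which replace Psmb5, Psmb6 and Psmb7 in the immunoproteasome after interferon, were also expressed. Psmb9 was at 55.2, 52.3, 34.4, 58.01 and 62.6 CPM on the standard diet and 34.9, 36.4 and 34.8 CPM on the BCAA-free diet. Standard-diet replicates 1, 2, 4 and 5 were higher than the BCAA-free libraries and standard-diet replicate 3 was below them, so the groups overlapped. The means were 35.3 ± 0.915 CPM (SD, n = 3) on the BCAA-free diet and 52.5 ± 10.8 CPM (SD, n = 5) on the standard diet (log2 fold change -0.57, SE 0.17, edgeR adjusted p = 0.128). It passed in DESeq2 (adjusted p = 0.0356), with no filter on low counts (0.0382) and in edgeR without standard-diet replicate 3 (0.0225). It did not pass in limma-voom (0.213), with the other scalings (0.1302 to 0.191) or with other libraries left out (0.175 to 0.306). Psmb8 was at 179, 144, 127, 181 and 171 CPM and 148, 139 and 177 CPM, standard diet first (adjusted p = 0.909 in edgeR). Psmb10 was at 49.7, 45.7, 39.9, 64.8 and 60.7 CPM and 44.3, 41.6 and 53.6 CPM (adjusted p = 0.704 in edgeR). Psmb9 shares 13.3% of its 38-base words with its neighbour Tap1, so its counts are uncertain to that extent.

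Set against the constitutive subunit that each replaces (CPM per kb), the inducible genes gave a ratio per library. The ratio of Psmb8 to Psmb5 was 2.14, 2.47, 1.62, 2.31 and 2.42 on the standard diet and 1.77, 1.81 and 2.06 on the BCAA-free diet, so Psmb8 was the higher gene in every library, with the reservation that most words of Psmb5 are shared with pseudogenes. The ratio of Psmb9 to Psmb6 was 0.473, 0.646, 0.294, 0.544 and 0.625 and 0.294, 0.354 and 0.253, with means of 0.516 ± 0.142 (SD, n = 5) on the standard diet and 0.3002 ± 0.0505 (SD, n = 3) on the BCAA-free diet. The ratio of Psmb10 to Psmb7 was 0.3396, 0.418, 0.255, 0.474 and 0.372 and 0.2900, 0.275 and 0.334. All 3 ratios overlapped between diets, and in all 3 standard-diet replicate 3 was the lowest standard-diet library and replicate 2 or 4 the highest.

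**Figure D5:**
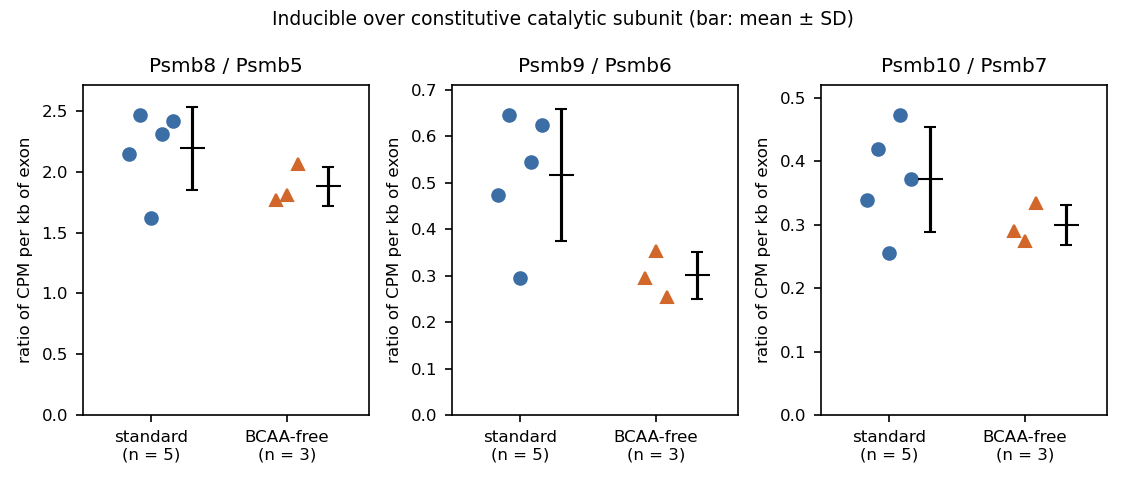
Ratio of each inducible catalytic subunit to the constitutive subunit it replaces, in CPM per kb, for every library (circles, standard diet; triangles, BCAA-free diet), with the mean and SD beside the points. Psmb8 exceeds Psmb5 in all 8 libraries, and Psmb9 / Psmb6 is between 0.253 and 0.354 on the BCAA-free diet and between 0.294 and 0.646 on the standard diet.

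Genes that assemble, regulate or feed the proteasome were not called either. Of 42 further tested genes on 6 lists, none passed in edgeR, 3 had an unadjusted p under 0.05 (Psmb9, Ddi2 and Uba6), 21 had a positive fold change and the median was 0.0017. The shares over all genes tested were 0.756%, 13.5% and 52.6% in the same order, with a median of 0.015. All 5 tested core assembly chaperones were uncalled (median 0.13), the smallest p being those of Psmg2 (39.8, 40.7, 37.7, 44.5 and 45.8 CPM on the standard diet and 40.98, 32.1 and 34.3 CPM on the BCAA-free diet) and Psmg3 (19.99, 12.7, 18.8, 24.5 and 20.2 and 23.00, 21.1 and 26.4 CPM). Of the Nfe2l1 list, none of 11 passed and 4 were positive. It holds Nfe2l1, Nfe2l2, Ddi2, Ngly1, Maff, Mafg, Mafk, Bach1 and the NF-Y genes Nfya, Nfyb and Nfyc, which do not all act alike. Ddi2, the protease that cuts Nfe2l1 into its active form, was at 40.3, 38.9, 44.7, 35.2 and 35.01 CPM and 52.5, 42.8 and 47.5 CPM, standard diet first, and BCAA-free replicates 1 and 3 lay above all standard-diet libraries (log2 fold change 0.29, SE 0.13, edgeR adjusted p = 0.341). Nfe2l1 itself was at 141, 128, 129.7, 141 and 122 CPM and 149.8, 111 and 143 CPM (log2 fold change 0.024, SE 0.11), and in standard-diet replicate 2 it lay inside the range of its group. Any part of Nfe2l1 in the low proteasome values of that library was not tested. Nfe2l2, its relative of the oxidative stress response, was at 82.6, 84.03, 95.7, 86.9 and 85.3 CPM and 93.8, 110.5 and 94.7 CPM, a log2 fold change of 0.20 (edgeR adjusted p = 0.426).

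The ubiquitin genes and activating enzymes held 5 tested genes, none called. Uba6, an E1 enzyme that charges ubiquitin, was at 55.9, 93.2, 86.3, 70.1 and 96.1 CPM on the standard diet and 63.9, 69.4 and 54.1 CPM on the BCAA-free diet (log2 fold change -0.36, SE 0.16, edgeR adjusted p = 0.341), with standard-diet replicate 1 inside the BCAA-free range. Of 8 tested shuttle factors and genes of the p97 unfoldase, 7 were positive and none passed (median 0.057). The smallest p in that list were those of the shuttle factor Ubqln4, at 95.2, 91.3, 83.9, 99.4 and 83.4 CPM and 103, 95.5 and 116 CPM (log2 fold change 0.21, SE 0.11), and of the unfoldase gene Vcp, at 242, 176, 219.8, 225 and 228 CPM and 254, 232 and 267 CPM (log2 fold change 0.20, SE 0.11). Vcp, like most proteasome genes, was lowest in standard-diet replicate 2. Of 10 other subunits and associated proteins, 2 were positive and none passed (median -0.066). The ubiquitin receptor gene Adrm1 was at 36.3, 25.6, 29.5, 34.1 and 28.8 CPM and 39.1, 32.7 and 41.9 CPM, standard diet first (log2 fold change 0.30, SE 0.15), and Ecpas, which tethers core and regulatory particle, at 425, 472, 433, 434 and 422 CPM and 413, 397 and 371 CPM (log2 fold change -0.15, SE 0.095). In standard-diet replicate 2, Ecpas was at its highest of the 8 libraries.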

How the data were processed

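The authors deposited 1 table of raw counts per gene and library, without normalization. Per the submitters' processing notes mm10 is the build and featureCounts and Cell Ranger are among the tools. The aligner, strand setting and handling of multiply mapped reads were not given in the sources used here. All 8 count columns matched the description label of 1 sample each, and groups came from the titles. Of 27179 Entrez identifiers, 25275 had a RefSeq symbol (GRCm38.p6, the same assembly as mm10), and the rest stayed in the tests.

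Diets were compared with the quasi-likelihood F test of edgeR 4.0.16 (R 4.3.3, robust setting) over all 8 libraries, scaled by TMM. Genes entered through filterByExpr (minimum count 10, minimum total count 15). The minimum count acts as a CPM cutoff in as many libraries as the smaller group has, not in every library. The model held diet alone, and p-values were adjusted by Benjamini and Hochberg over the 13364 genes. A standard error is the fold change on the log2 scale over the root of F. Alternatives were DESeq2 1.42.0, limma-voom 3.58.1, other scalings, no filter, the replicate number as a block, and leaving out libraries. The marker sum without Mpo was added after the data were seen. The procedure was tested on simulated data. All members could be named. Values per library went to the 12 members with the smallest p, the catalytic and inducible subunits, Psma1, Psmd1, and the highest and lowest gene per kb of core and regulatory particle, and the 2 genes with the smallest p of each other list, of which 1 is not reported here; Psmc1, Psmc3, Psmb1 and Nfe2l1 were added after their values were seen. Members, lists and motifs were chosen with earlier results of these data known. Counts of overlapping genes, antisense genes and near-identical copies are uncertain.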

Additional observations from a re-analysis of the deposited data

Results flagged for a closer look

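The standard-diet values of members, further genes and summary levels, 60 sets in all, were each searched for a library far from the other 4 (a gap to its nearest neighbour above 0.71 of the range, which chance gives in about 1 in 20 sets), and 6 were found, all of them for replicate 2. In that library Psmb1 was at 151 CPM against 188.8 to 202.4 in the others, Psmc1 at 154 CPM against 204.9 to 212.6, Psmc3 at 178 CPM against 230.8 to 236.7, and Psmd3 at 93.1 CPM against 130.1 to 140.4. The mean level of the 14 core genes was 89.5 CPM per kb against 110.6 to 119.2. Ecpas went the other way, at 472 CPM against 422 to 434.1. These genes share the library, so the 6 are not independent of each other.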

How the results depend on the processing

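No member was called in edgeR, DESeq2 or limma-voom, with the other scalings, with no filter, or when 1 library, or both BCAA-free replicate 3 and standard-diet replicate 1, were left out. Between 0 and 3 members had an unadjusted p under 0.05 when 1 library was left out (11.0% to 14.7% of all genes). The count over all genes tested was 101, and 376 in DESeq2, 237 with no filter, 0 with the replicate block, and between 32 and 134 when 1 library was left out. The count was lowest without BCAA-free replicate 2 (32), and was 52 without BCAA-free replicate 1 or standard-diet replicate 2, 53 without standard-diet replicate 5 and 55 without standard-diet replicate 4. The replicate numbers were not taken as pairs, because deviations from the group means correlated at -0.081, -0.052 and -0.30 between same-numbered libraries. With the replicate block no member was called, and the unadjusted p was under 0.05 for 3 of 40 and for 6.73% of all genes. Standard-diet replicates 4 and 5 have no BCAA-free library of the same number, so they added nothing to the diet difference in the block fit. In that fit 37 of 40 members were positive with a median of 0.15 (all genes 50.5% and 0.0033), and Psmb9 had a log2 fold change of -0.39 (edgeR adjusted p = 0.755). The block fit rests more on standard-diet replicate 2, the lowest library for 34 of the 40 members. Without that library, the fit with diet alone had 23 of 40 positive and a median of 0.017. The median difference between core and regulatory particle fold changes (0.026) ranged from 0.0056 to 0.064, the log2 difference of their ratio (0.031) from 0.010 to 0.050, that of the immunoproteasome ratio (-0.33) from -0.46 to -0.27 and that of the summed level (0.085) from 0.017 to 0.11 when 1 library was left out. All other alternatives for these stayed within 1 SD of the standard-diet libraries.

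Of the 40 members, 6 took the other sign with library totals only, 6 with upper-quartile factors, 6 with the replicate block, 1 in limma-voom, 1 with no filter, and 1 to 8 when 1 library was left out (8 without standard-diet replicate 2). Among the genes with values per library, those that took the other sign had no call, and the cause was not tested: with library totals only, Psma1 (0.015) and Psmd11 (0.037); with upper-quartile factors, Psma1 (0.0042) and Psmd11 (0.026); with the replicate block, Psma1 (0.052), Psmb8 (0.054), Psmb10 (0.043) and Psmd11 (0.030); without BCAA-free replicate 3, Psma1 (0.00033), Psma3 (0.056) and Psmd11 (0.026); without BCAA-free replicate 1, Psmd1 (-0.0012) and Psmd14 (-0.097); without BCAA-free replicate 2, Psmb8 (0.015) and Psmd11 (0.051); without standard-diet replicate 1, Psmd14 (-0.0056); without replicate 2, Psmd14 (-0.041); and without replicates 3 and 4 in turn, Psmd11 (0.028 and 0.019). With 1 library left out, the extremes on the side of the full fit were -0.093 for Psma1, 0.26 for Psmd1, -0.16 for Psmb8, -0.14 for Psma3, 0.10 for Psmd14 and -0.12 for Psmd11. Each tested member had at least 390 counts in every library.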
